A study of Mus musculus with 81 samples.

Results

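To ask how much interferon-stimulated gene (ISG) expression normal macrophages maintain through the type I interferon receptor, WT bone marrow-derived macrophages (BMDMs) cultured with a blocking IFNAR1 antibody were compared with WT BMDMs cultured with no antibody. The comparison rests on 6 of the 81 RNA-seq libraries of the study, 3 per group, chosen by genotype and antibody as the labels give them. WT cells came from C57BL/6 mice of both sexes, aged 8 to 10 weeks, with floxed H3f3a and H3f3b and no Cre, so that they carry the floxed alleles but keep histone H3.3. Bone marrow was grown in medium conditioned by L929 cells, a source of the macrophage growth factor CSF1. The mouse monoclonal IFNAR1 antibody was present from the start of culture and renewed until the cells were lysed on day 6. Parallel WT cultures received a control antibody, an IgG1 κ isotype that does not target the receptor. H3.3cKO cultures (cKO), which have the same floxed alleles and in addition Cre driven from the myeloid Lyz2 locus, were grown in the same way. The labels call the libraries of a group biological replicates without saying whether each came from its own mouse. The p-values therefore measure the spread between libraries within groups, pooled over all 18 antibody libraries in the main test.

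Type I interferons signal through a receptor of the IFNAR1 and IFNAR2 chains. The bound receptor activates the kinases JAK1 and TYK2, which phosphorylate STAT proteins, and these join IRF9 to form ISGF3, a complex that binds interferon-stimulated response elements in ISG promoters. Unstimulated macrophages are known to secrete and sense a low amount of interferon-β, called tonic signalling, which keeps a basal level of many ISGs and of the STAT and IRF proteins themselves.

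The 6 libraries held between 18680746 and 27295864 counts on genes. Of 54146 genes listed, 17191 were tested. On the leading axis of variation among the WT libraries the replicates of both groups overlapped. The no antibody libraries scored -7.42, 39.0 and 13.5, and the IFNAR1 antibody libraries scored 33.0, 53.2 and -22.2. The 3 control antibody libraries were tight, between -38.8 and -33.1. The genotype labels held for all 6 libraries. H3f3b, which encodes H3.3, was at 295 to 468 CPM (counts scaled to a library of 1e+06) in them against 16.7 to 63.0 in the cKO libraries without antibody or with IFNAR1 antibody. Lyz2, whose locus is replaced by Cre in cKO, was at 5282 to 13930 CPM in the 6 libraries and at 11.9 to 19.4 CPM in those cKO libraries.

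Macrophage markers were abundant in every library. Of the 18 marker genes, 17 were tested, and their summed level ranged from 29170 to 34340 CPM without antibody and from 31330 to 45910 CPM with IFNAR1 antibody. Neutrophil markers summed to at most 131 CPM in any of the 6 libraries. Of 14 T and NK cell markers, 2 were tested, and Cd3e, Cd3g, Gzma, Gzmb and Ncr1 had no count in any of the 6 libraries. Of 12 B cell markers, 5 were tested, and Igkc was at 0. Stromal markers differed between replicate numbers more than between treatments, at 61.7, 20.1 and 141 CPM in no antibody replicates 1 to 3 and 54.7, 10.04 and 173 CPM in the IFNAR1 antibody replicates, and their part in the results was not tested.

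The genes with the smallest p-values were mostly ISGs and were lower with IFNAR1 antibody. The 10 genes with the smallest p-values were all lower, and 8 of them were on lists of interferon-induced effectors: Oas2, Oasl2, Rtp4, Oas1g, Oas1a, Oas3, Mx1 and Ifit3. The other two were Plpp5, a lipid phosphatase gene, and Serp1, which encodes a small protein of the endoplasmic reticulum (ER). Of the 20 genes with the smallest p-values, 20 were lower and 12 were on interferon lists. Besides the effectors, these lists hold JAK, STAT and ISGF3 genes, interferon regulatory factors, receptors and feedback inhibitors, RNA and DNA sensing genes and TRIM genes. Further down this was no longer so: of the first 40 genes, 12 were on those lists and 8 were higher, and of the first 100, 18 were on them and 33 were higher. The size of these differences was large for single genes, with Oas2 at 8.5% and Rtp4 at 4.7% of their mean level without antibody.

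No gene passed the threshold of the main test, edgeR's quasi-likelihood test with Benjamini-Hochberg adjustment at 0.05, in which all 18 antibody libraries of WT and cKO shared 1 estimate of the spread (0% of 17191 genes). The smallest adjusted p was 0.0659, for Oas2. At an unadjusted p under 0.05, 878 genes were found, with 401 lower (2.33%) and 477 higher (2.77%). DESeq2 on the same 18 libraries called 31 genes, 28 lower (0.163%) and 3 higher (0.0175%), and 12 of the 31 were on effector lists. With the replicate number as a block edgeR called 5 genes, all effectors (Oas2, Oas3, Rtp4, Oas1g and Oas1a). Without no antibody replicate 3 it called 3 genes, and without no antibody replicate 1 it called 5. Fitted to the 6 libraries alone, or without the control antibody libraries, edgeR called none. The edgeR adjusted p of Oas2 was then 0.4216 and 0.6033, respectively. Differences are therefore given by their values, with the test named where one called a gene.

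**Figure D1:**
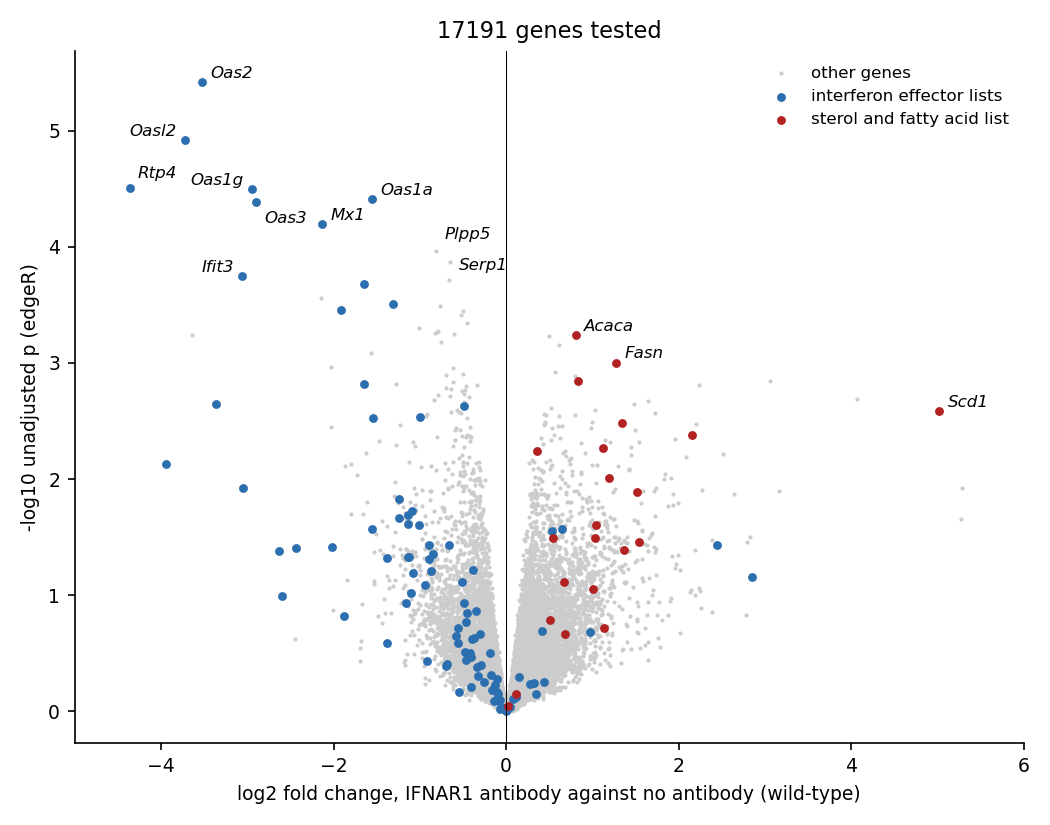
Each point is 1 of 17191 genes tested in WT BMDMs, with the log2 fold change of IFNAR1 antibody against no antibody on the horizontal axis and −log10 of the unadjusted edgeR p on the vertical axis. Interferon effector genes (blue) take the top left, with Oas2, Oasl2 and Rtp4 highest, and genes of sterol and fatty acid synthesis (red) lie on the right.

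Promoters were searched for the core of the interferon-stimulated response element. RefSeq promoter sequences (GRCm38.p6, the same assembly as mm10) were searched over the 250 bases before each gene's start for GAAA followed after any 2 bases by a further GAAA, on either strand. A gene was counted if any of its promoters in the table held this pattern. By that count it was present for 359 of 10826 tested genes with a promoter (3.32%). Counted by single promoters, it was present in 978 of the 32851 in the table (2.98%). Of the 10 genes with the smallest p, 6 had a promoter, and 5 of these held it (Oas1g, Oas1a, Oas3, Ifit3 and Serp1, the last not on an interferon list). Of the 28 genes lower in DESeq2, 19 had a promoter and 9 of these held it (47.4%). Among effector genes with a promoter it was present for 36 of 74 (48.6%). Among the 10 genes with the smallest p, Oasl2 was the one whose promoter lacked it, and Oas2, Rtp4, Mx1 and Plpp5 had no promoter in the table used. None of 14 sterol and fatty acid synthesis genes with a promoter held it. A match describes the letters of the sequence and is not evidence of binding.

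The windows below are shown because they lie before ISGs that were among the lowest with IFNAR1 antibody. Each is read in the direction of its gene, with up to 20 bases on either side, and the capitals mark the matches. The Oas1a and Oas1g matches overlap and share their letters, the Oas3 window holds a single match on the gene strand, and the Ifit3 and Rsad2 matches are on the other strand.
Oas1a, chr5:120907526-120907565, minus strand: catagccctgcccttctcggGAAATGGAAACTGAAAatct
Oas1g, chr5:120887614-120887651, minus strand: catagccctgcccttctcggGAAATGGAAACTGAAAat
Oas3, chr5:120777705-120777754, minus strand: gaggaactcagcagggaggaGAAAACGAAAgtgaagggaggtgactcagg
Ifit3, chr19:34583353-34583436, plus strand: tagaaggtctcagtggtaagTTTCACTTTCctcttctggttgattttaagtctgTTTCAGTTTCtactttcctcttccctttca
Rsad2, chr12:26456543-26456592, minus strand: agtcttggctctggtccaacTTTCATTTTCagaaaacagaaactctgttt

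The match nearest to the start began 14 bases before the start of Oas1a, 12 before Oas1g, 75 before Oas3, 122 before Ifit3 and 120 before Rsad2.

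The 2′-5′ oligoadenylate synthetase (OAS) genes gave the lowest median of all interferon lists. OAS enzymes are switched on by double-stranded RNA and make short oligoadenylates, which trigger the breakdown of RNA. Of 13 genes on the list, 10 were tested and 10 were lower with IFNAR1 antibody, with a median log2 fold change of -2.04 against 0.02 over all genes tested. In 8 of the 10 the 3 IFNAR1 antibody libraries all lay below the 3 no antibody libraries, which was the case for 498 of all genes tested (2.9%). Oas1c was a member whose groups overlapped. Oas1h was among the 8 with at most 4 counts in a library. No list member had 3 libraries above all no antibody libraries, against 392 of all genes (2.28%).

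Oas2 (ENSMUSG00000032690, mm10 chr5:120730333-120749853) was at 25.3, 19.5 and 10.9 CPM in the no antibody libraries and 1.73, 1.07 and 1.94 CPM in the IFNAR1 antibody libraries. All 3 treated libraries were below the lowest untreated one, which was replicate 3. The control antibody libraries lay between the groups, at 6.23, 6.12 and 5.03 CPM. The log2 fold change against no antibody was -3.53 ± 0.51 (SE), with an adjusted p of 0.0659 in edgeR and 2.27e-09 in DESeq2.

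Oas3, the largest OAS enzyme, is the neighbour of Oas2 on chromosome 5 (mm10 chr5:120753098-120777661). It was at 67.5, 62.2 and 28.5 CPM without antibody, 8.49, 6.34 and 6.38 CPM with IFNAR1 antibody and 23.8, 17.8 and 15.1 CPM with control antibody. The 3 groups did not overlap, and the order was none, control, IFNAR1. The log2 fold change of IFNAR1 antibody against none was -2.89 ± 0.52 (edgeR adjusted p = 0.118, DESeq2 8.61e-06).

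Oas1a and Oas1g, whose promoter windows are nearly alike, separated IFNAR1 antibody from both other groups. Oas1a was at 17.97, 14.4 and 10.6 CPM without antibody, 13.4, 11.4 and 10.2 CPM with control antibody and 4.50, 4.14 and 5.97 CPM with IFNAR1 antibody. The untreated and control antibody groups overlapped and the treated libraries were below them all, with a log2 fold change of -1.55 ± 0.28 against none (edgeR adjusted p = 0.118, DESeq2 0.000258). Oas1g was at 6.15, 3.67 and 2.99 CPM without antibody and 0.577, 0.126 and 0.879 CPM with IFNAR1 antibody. The treated levels of Oas1g rest on few counts. Reads of near-identical Oas1 copies can be shared or lost in counting, so the split between them is uncertain.

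Oasl2, an OAS-like gene, was at 27.3, 14.5 and 6.73 CPM without antibody and 0.577, 0.816 and 2.27 CPM with IFNAR1 antibody. Control antibody libraries lay at 6.23, 3.91 and 5.13 CPM, below the untreated and above the treated ones. Its log2 fold change was -3.72 ± 0.59 (edgeR adjusted p = 0.103, DESeq2 3.39e-08).

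**Figure D2:**
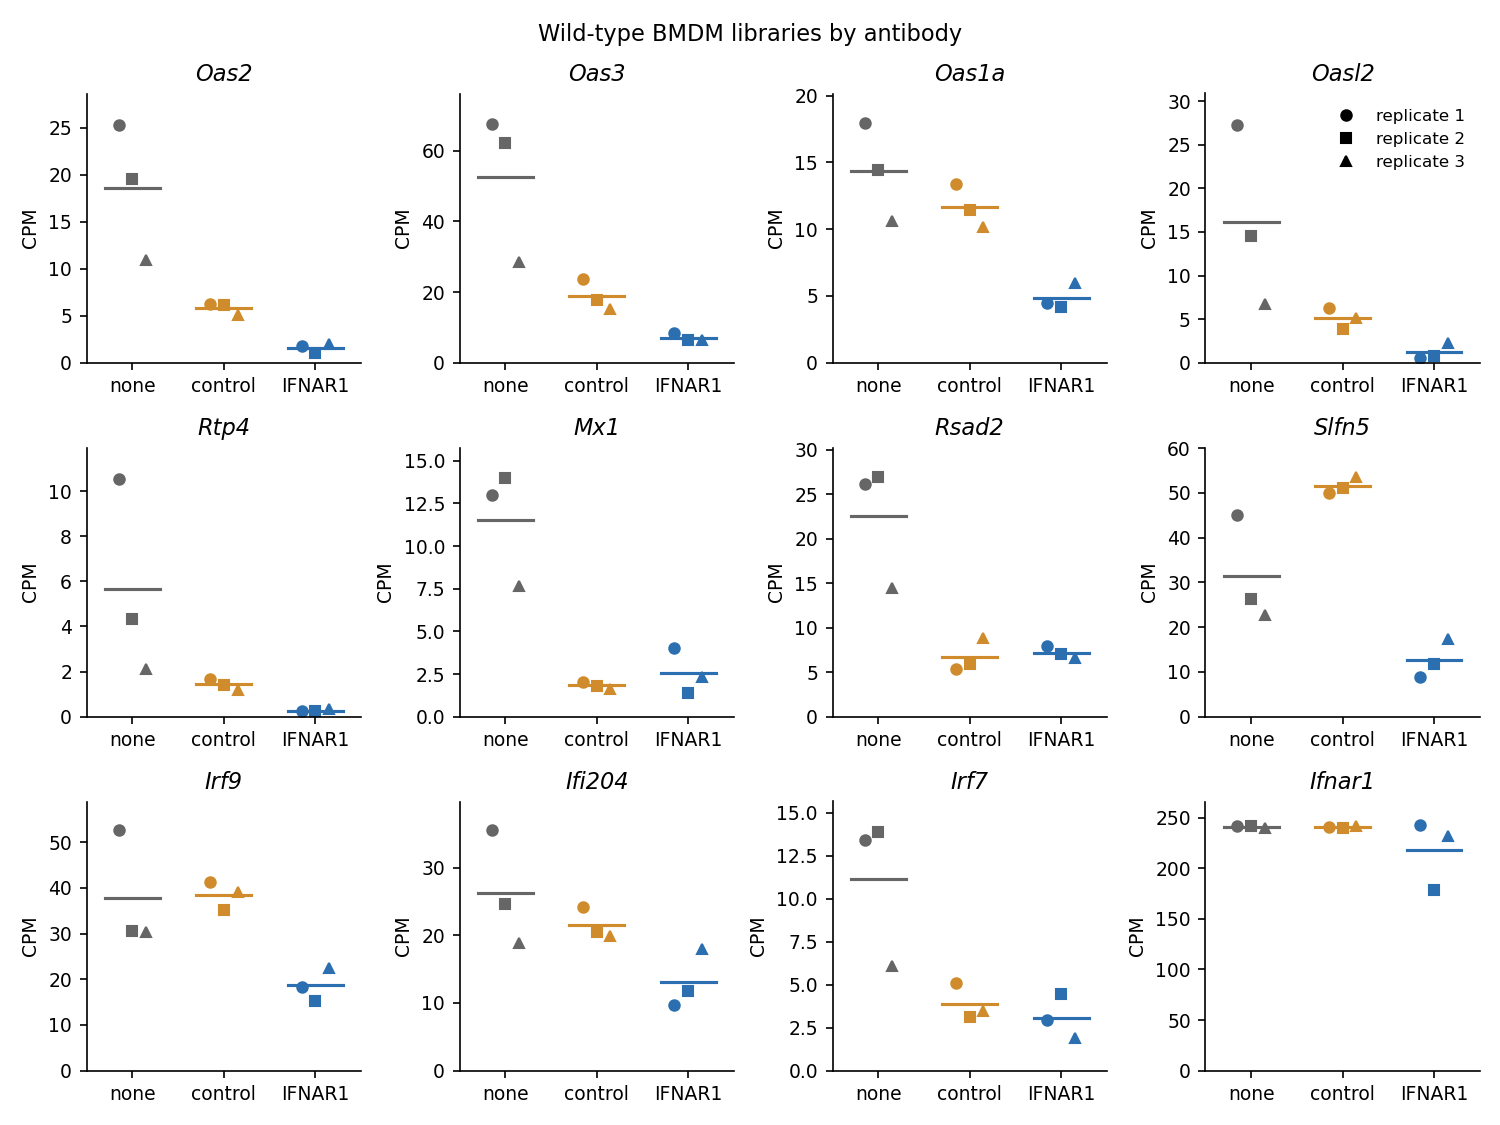
Points show CPM on a linear axis from 0 in the 9 WT libraries for 12 genes, by antibody, with symbols for replicates 1 to 3 and a line at the mean. The OAS genes and Rtp4 are lowest with IFNAR1 antibody, Mx1 and Rsad2 are low with both antibodies, Slfn5 and Irf9 are low with IFNAR1 antibody alone, and Ifnar1 itself lies between 179 and 243 CPM in all groups.

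The other families of antiviral effectors were lower on balance, with a few members far below the rest. Over the 9 effector lists together, 98 genes were tested, of which 83 were lower and 15 higher, with a median log2 fold change of -0.53 against 0.02 over all genes. Of the 98, 26 had all 3 IFNAR1 antibody libraries below all 3 untreated ones (26.5%, against 2.9% of all genes), and 35 were lower at an unadjusted p under 0.05 (against 2.33% of all genes). The single member with all treated libraries above was Ifi202b, at 0.0471 to 0.0516 CPM without antibody and 0.115 to 0.555 CPM with it. The lists were drawn up with earlier results of these data known, so these counts describe the lists and do not test them.

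Rtp4, a chaperone of the receptor transporter family that is induced by interferon, had the lowest log2 fold change among the 10 genes with the smallest p. It was at 10.5, 4.33 and 2.13 CPM without antibody, and 0.231, 0.251 and 0.324 CPM with IFNAR1 antibody, where a library held 4 to 7 counts. The untreated libraries spread widely but none came near the treated ones, and control antibody libraries lay between at 1.68, 1.42 and 1.19 CPM. The log2 fold change was -4.36 ± 0.76 (edgeR adjusted p = 0.118, DESeq2 3.02e-07).

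Mx1, a gene of the dynamin-like GTPase family, and Rsad2 (viperin), a radical enzyme that makes a chain-terminating nucleotide, were low with either antibody. Mx1 was at 13.01, 13.98 and 7.65 CPM without antibody, 4.04, 1.38 and 2.31 CPM with IFNAR1 antibody and 2.03, 1.81 and 1.65 CPM with control antibody. Rsad2 was at 26.1, 26.9 and 14.5 CPM without antibody, 7.92, 7.03 and 6.62 CPM with IFNAR1 antibody and 5.32, 5.95 and 8.79 CPM with control antibody. In both genes the antibody groups overlapped each other and neither overlapped the untreated group. DESeq2 called both lower with IFNAR1 antibody than without (adjusted p = 0.000258 and 0.00542), and edgeR called both lower with control antibody than without (adjusted p = 0.00386 and 0.0105).

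IFIT proteins bind viral RNA ends. All 6 Ifit genes tested were lower, with a median log2 fold change of -1.20, but only Ifit3 separated the groups. Ifit3 was at 4.08, 2.87 and 1.01 CPM without antibody and 0.307, 0.188 and 0.416 CPM with IFNAR1 antibody, on 3 to 9 counts per treated library (log2 fold change -3.06 ± 0.63, DESeq2 adjusted p = 0.000564). Ifit3b, a close copy, was at 0 in 2 treated libraries, and reads may have been divided between the copies. Ifit1 and Ifit2 overlapped between the groups, with log2 fold changes of -1.24 ± 0.45 and -1.14 ± 0.46.

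Of 32 antiviral effectors tested, 26 were lower and 8 had all treated libraries below all untreated ones (against 2.9% of all genes), with a median of -0.40. Ifi44, an interferon-induced cytoplasmic protein of little known action, was at 2.22, 0.988 and 0.405 CPM without antibody and 0.0384, 0 and 0.278 CPM with IFNAR1 antibody. It was called lower by DESeq2 (log2 fold change -3.46, adjusted p = 0.0281) on at most 6 counts in a treated library. Ifitm genes, which block viral fusion, gave a median of 0.33 over 5 genes, and Ifitm3 was at 387, 330 and 265 CPM without antibody and 240, 262 and 188 CPM with it. These ranges did not overlap (log2 fold change -0.51 ± 0.27, edgeR adjusted p = 1).

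Slfn5, a Schlafen family gene, stood out among 10 Schlafen genes of which 9 were lower. It was at 45.1, 26.4 and 22.6 CPM without antibody, 8.80, 11.7 and 17.3 CPM with IFNAR1 antibody and 49.98, 51.1 and 53.4 CPM with control antibody. The treated libraries were below every other WT library, and the control antibody libraries were the highest. edgeR called Slfn5 lower with IFNAR1 than with control antibody (log2 fold change -2.03, adjusted p = 0.00258), and DESeq2 called it lower than without antibody (-1.31, adjusted p = 0.0104).

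Ifi204, a PYHIN gene whose product binds DNA in the nucleus and cytosol, was at 35.5, 24.6 and 18.8 CPM without antibody and 9.69, 11.7 and 17.9 CPM with IFNAR1 antibody. The ranges came within 1 CPM of each other without overlap, and no test called the difference (log2 fold change -1.003 ± 0.29, edgeR adjusted p = 0.6645). Of 11 PYHIN genes 9 were lower, with a median of -0.58. Guanylate-binding proteins and immunity-related GTPases, GTPases that attack the vacuoles of intracellular pathogens, had medians of -0.62 over 8 genes and -0.59 over 10. Among the former Gbp8 was at 3.56, 5.32 and 4.20 CPM without antibody and 3.08, 0.627 and 2.68 CPM with it.

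Isg15, a ubiquitin-like protein attached to many targets, was at 5.42, 3.01 and 3.04 CPM without antibody, and 1.84, 2.26 and 1.29 CPM with IFNAR1 antibody. Usp18, which removes ISG15 and also binds IFNAR2 to dampen signalling, was at 6.09, 8.66 and 3.39 CPM and 0.846, 2.57 and 1.53 CPM, respectively. Both genes had separate groups, and DESeq2 called Usp18 alone (log2 fold change -1.90, adjusted p = 0.00889). Among 17 TRIM genes linked to interferon 14 were lower, and Trim30d was the one with the smallest p, at 26.3, 12.9 and 13.7 CPM without antibody and 7.88, 3.58 and 10.2 CPM with it (log2 fold change -1.28 ± 0.33, edgeR adjusted p = 0.604).

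MHC class I and antigen processing genes showed little difference, with 17 of 24 lower and a median of -0.09. Nlrc5, the transactivator of MHC class I genes, was at 65.8, 59.2 and 64.8 CPM without antibody and 44.3, 30.2 and 55.8 CPM with IFNAR1 antibody, groups that did not overlap (log2 fold change -0.54 ± 0.17, edgeR adjusted p = 0.834). RNA sensing genes, which include Ifih1 and Ddx58, had a median of -0.11. None of 15 separated the groups, a count near the share over all genes (2.9% below and 2.28% above).

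Genes of the signalling chain differed among themselves. Ifnar1, the target of the antibody, was at 242, 242 and 239 CPM without antibody and 243, 179 and 232 CPM with it. The treated libraries were not set apart except for replicate 2, and the log2 fold change was -0.15 ± 0.12 (edgeR adjusted p = 1). Ifnar2, the partner chain, had means of 83.3 ± 8.2 and 86.2 ± 16.3 CPM (SD, n = 3 each). RNA levels do not show whether the receptor protein was blocked.

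Irf9, the DNA-binding subunit of ISGF3, separated the groups. It was at 52.7, 30.6 and 30.3 CPM without antibody, 41.3, 35.2 and 39.1 CPM with control antibody and 18.4, 15.3 and 22.5 CPM with IFNAR1 antibody. The treated libraries were below all others, by a log2 fold change of -1.01 ± 0.23 against none (DESeq2 adjusted p = 0.0307) and -1.04 against control antibody (edgeR adjusted p = 0.0139). Stat2 was nearly level, at 38.9, 30.2 and 24.2 CPM and 29.0, 28.2 and 26.8 CPM (-0.15 ± 0.21, edgeR adjusted p = 1).

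Irf7, the master regulator of interferon-α genes and itself an ISG, was at 13.4, 13.9 and 6.08 CPM without antibody and 2.92, 4.45 and 1.90 CPM with IFNAR1 antibody. The groups did not overlap, but the control antibody libraries, at 5.11, 3.12 and 3.48 CPM, overlapped the treated ones (log2 fold change against none -1.86 ± 0.61, edgeR adjusted p = 0.834). Transcripts of the interferons were hardly seen. Of 16 type I interferon genes, Ifnk alone was tested, with 48 counts over the 6 libraries. Ifnb1 had no count in the no antibody libraries and 1, 3 and 1 counts with IFNAR1 antibody, Ifna13 had 8 counts in all 6 libraries, and the remaining genes had at most 1. At this depth the source of the basal ISG level could not be read from interferon transcripts.

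**Figure D3:**
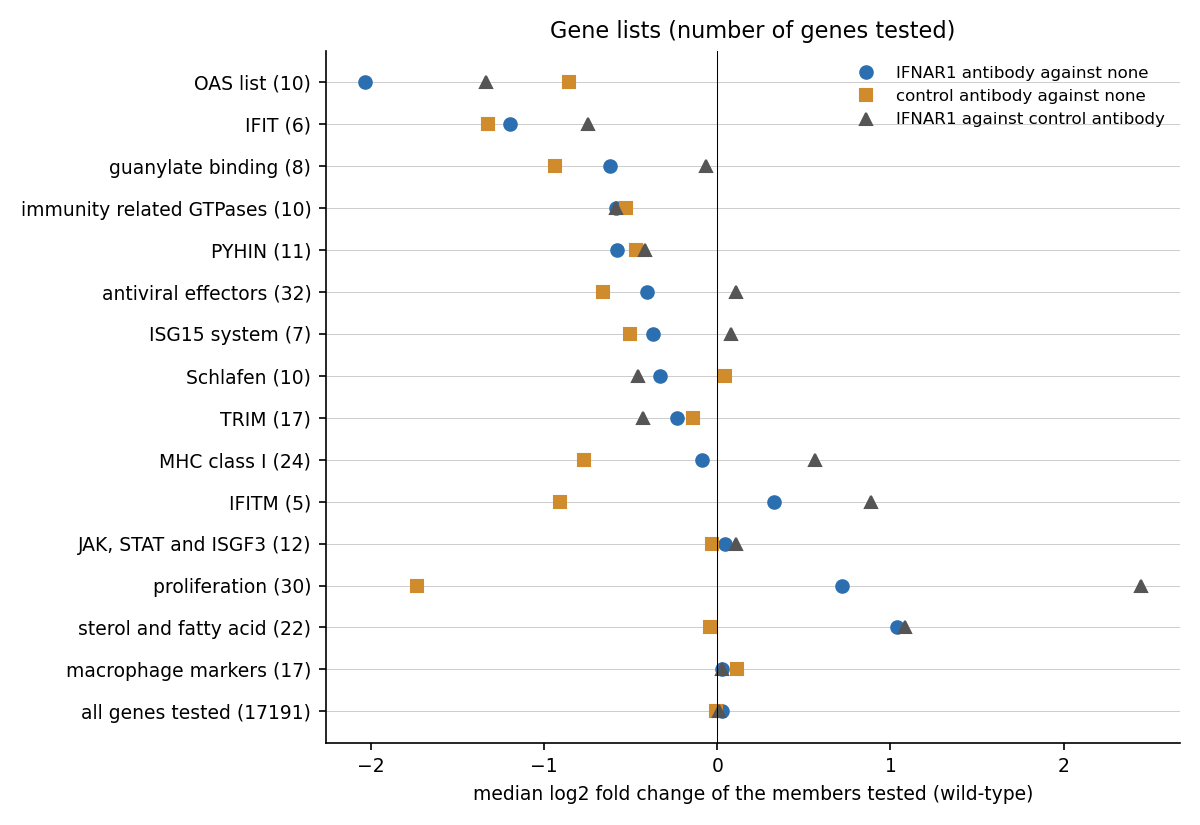
Symbols give the median log2 fold change over the tested members of each gene list in WT BMDMs for 3 comparisons, which share libraries in pairs. The OAS list is lower in all 3, the antiviral effectors are lower with either antibody than without, and the proliferation list has opposite signs, at 0.72 with IFNAR1 antibody and -1.73 with control antibody.

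To see which of these differences set the IFNAR1 antibody apart from an antibody as such, the control antibody was compared with both groups. Control antibody against none gave far more calls than the IFNAR1 antibody did, 968 genes lower (5.63%) and 562 higher (3.27%). IFNAR1 against control antibody gave 526 lower (3.06%) and 1174 higher (6.83%). These comparisons share libraries with the main one and are not independent of it. The control antibody libraries were also the closest to each other on the leading axis, and they differed from the 6 libraries beyond the interferon lists. Mitochondrial genes held 0.333 to 0.674% of their counts on genes, against 1.066 to 2.115% in the 6 libraries. Macrophage markers summed to 51680 to 51960 CPM, against 29170 to 45910 CPM. The part of these differences in the counts of calls was not tested.

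Of the 98 effector genes, 13 were called lower and none higher with control antibody than without. With IFNAR1 antibody against control antibody 6 were lower and 4 higher, and the median log2 fold change was -0.0014. Against none, the median over the effectors was -0.65 with control antibody and -0.53 with IFNAR1 antibody. The latter was -0.28 without no antibody replicate 1 and -0.86 without IFNAR1 antibody replicate 3, so the gap between the medians is smaller than what 1 library moves. Of the OAS genes, 4 of 10 were called lower and 1 higher with IFNAR1 than with control antibody, with a median of -1.34 over the list. The genes called lower were Oas2 (adjusted p = 0.0339), Oasl2 (0.0433), Oas1g (0.00736) and Oas1a (0.0125) in edgeR. Slfn5 and Irf9, given above, were called in the same direction. MHC class I genes had a median of -0.77 with control antibody against none and of 0.56 with IFNAR1 against control antibody.

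Beyond the interferon lists, Serp1 and Plpp5 had the smallest p-values, and the other genes here are named by their DESeq2 calls. Serp1, which stabilises proteins at the ER membrane under stress, was at 306, 442 and 356 CPM without antibody, 263, 243 and 200 CPM with IFNAR1 antibody and 206, 210 and 210 CPM with control antibody. Plpp5 was at 42.2, 68.2 and 59.5 CPM without antibody, 32.1, 33.0 and 32.0 CPM with IFNAR1 antibody and 30.9, 31.1 and 30.5 CPM with control antibody. In both genes each antibody-treated library was below every untreated one.

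DESeq2 also called lower Preb, needed for vesicle budding from the ER, Ssr2, a subunit of the translocon-associated complex, H13, the signal peptide peptidase, and Ostc, an oligosaccharyltransferase subunit, with log2 fold changes of -0.50, -0.45, -0.66 and -0.60. With control antibody against none, edgeR called Serp1, Plpp5, Preb, Ssr2, H13 and Ostc lower, with adjusted p from 0.00259 to 0.0263. Ptgir, the prostacyclin receptor, and Hid1, a Golgi trafficking gene, were called lower with IFNAR1 antibody by DESeq2 as well (-0.76 and -2.15). The 3 genes that rose in DESeq2 were Asxl1, a chromatin regulator (0.51), Ppm1h, a phosphatase (0.62), and Acaca, the acetyl-CoA carboxylase of fatty acid synthesis (0.81).

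Of 12 genes of the integrated stress response, 10 were lower, 5 of them at an unadjusted p under 0.05 (against 2.33% of all genes), and 1 of the 2 higher ones, Psat1, an enzyme of serine synthesis, also had such a p (log2 fold change 0.58, against 2.77% of all genes). Trib3, a pseudokinase induced in that response, was at 119, 123 and 158 CPM without antibody, 133, 134 and 131 CPM with control antibody and 78.9, 44.5 and 105 CPM with IFNAR1 antibody. Its treated libraries were below all other WT libraries (log2 fold change -0.81 ± 0.27, edgeR adjusted p = 0.834). Of 16 immediate early genes 13 were lower, with a median of -0.30, and Fosb had the smallest p (log2 fold change -0.79, edgeR adjusted p = 0.635). All 9 MHC class II genes were higher with a median of 0.53. None separated the groups (2.28% of all genes had all treated libraries above) or had a p under 0.05.

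Acaca belongs to the list of sterol and fatty acid synthesis genes. All 22 genes were higher with IFNAR1 antibody, with a median log2 fold change of 1.04, and 15 of them had an unadjusted p under 0.05 (2.77% of all genes were higher at that level). The list's summed level was 1036, 1329 and 1003 CPM without antibody and 2589, 2855 and 825 CPM with it. Replicates 1 and 2 with IFNAR1 antibody were high, replicate 3 was the lowest of the 6 libraries, and the groups overlapped. Scd1, a fatty acid desaturase, had the widest range, at 1.45, 0.800 and 1.77 CPM without antibody and 78.2, 51.6 and 1.06 CPM with it. Fasn, fatty acid synthase, was at 88.7, 65.0 and 61.9 CPM and 194, 240 and 87.8 CPM (log2 fold change 1.28 ± 0.32, edgeR adjusted p = 0.55), with treated replicate 3 just below the untreated maximum. Sqle, squalene epoxidase, separated the groups, at 30.6, 15.01 and 16.1 CPM against 38.4, 37.2 and 34.4 CPM, and with control antibody it was at 41.7, 37.7 and 42.0 CPM. In cKO the summed level was high in a single library, at 721.7, 746.3 and 665.5 CPM without antibody and 2248, 753.9 and 698.4 CPM with IFNAR1 antibody. Without IFNAR1 antibody replicate 3 the median of the list in WT was 1.41.

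Proliferation genes gave a like picture. All 30 were higher, with a median of 0.72, of which 3 had an unadjusted p under 0.05. Their summed level was 2307, 2158 and 2015 CPM without antibody, 3905, 4637 and 1936 CPM with IFNAR1 antibody and 1108, 563 and 602 CPM with control antibody. Again IFNAR1 antibody replicate 3 lay below all untreated libraries and replicates 1 and 2 above them. Rrm2, a subunit of ribonucleotide reductase, was the exception with separate groups, at 58.3, 32.1 and 36.3 CPM without antibody and 84.5, 88.7 and 69.1 CPM with it (0.94 ± 0.35, edgeR adjusted p = 0.897). Cenpf, a kinetochore gene, was at 45.1, 47.8 and 42.6 CPM and 144, 155 and 36.4 CPM. In bulk libraries fewer cells of a kind and less RNA per cell cannot be told apart, which holds for every level given here.

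The OAS genes did not follow this split of the replicates. Their summed level was 234, 174 and 145 CPM without antibody. It was 108, 68.4 and 71.7 CPM with IFNAR1 antibody, so that replicate 3 was close to replicate 2. Most of the summed level with IFNAR1 antibody came from list members other than Oas2, Oas3, Oas1a, Oas1g and Oasl2. The closeness of these replicates therefore describes mainly those other members. With control antibody the summed level was 92.3, 81.8 and 78.7 CPM.

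**Figure D4:**
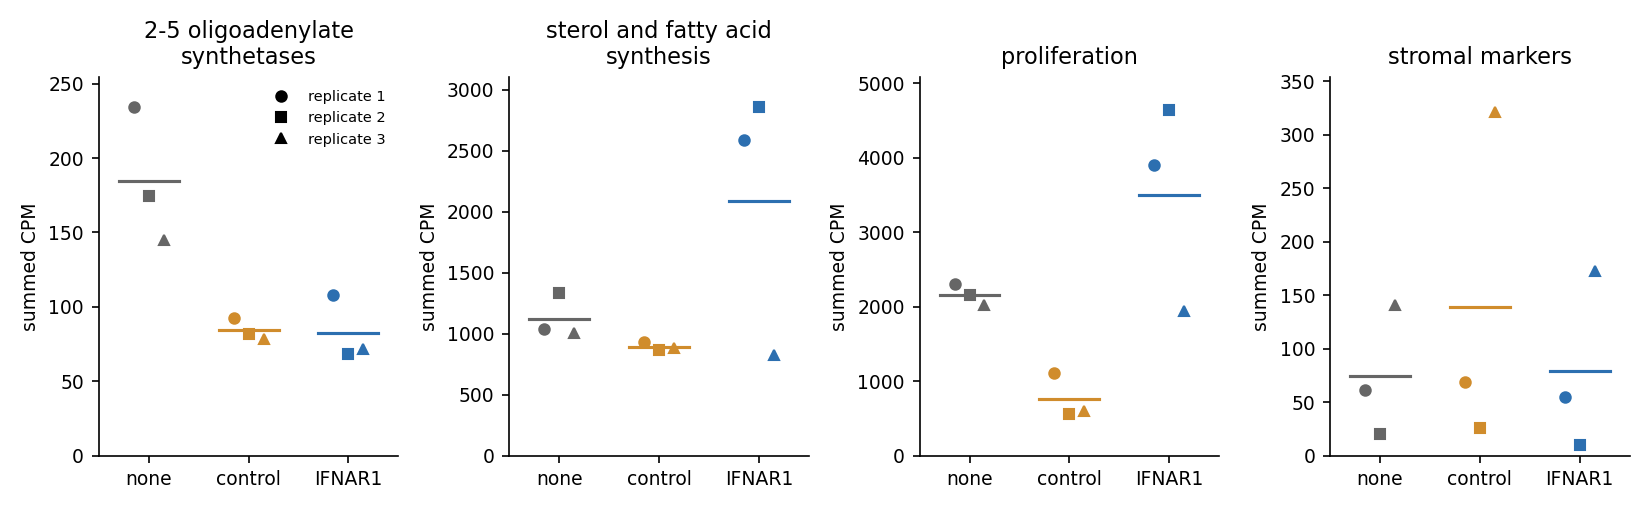
Lines mark the mean and symbols the 3 replicates of the summed CPM of 4 gene lists in WT BMDMs by antibody, on linear axes from 0. The OAS list is low in all antibody-treated libraries, whereas the sterol and proliferation lists are high in IFNAR1 antibody replicates 1 and 2 and not in replicate 3, and stromal markers follow the replicate number.

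The same comparison in cKO BMDMs, which start from higher ISG levels, shares no library with the WT comparison. There edgeR called 24 genes lower (0.14%) and 1 higher (0.00582%) with IFNAR1 antibody, and 46 genes in all with the replicate number as a block. Of these 24 genes, 22 were lower in WT too (against 7970 of all 17191 genes), with a median WT log2 fold change of -1.22. In 14 of the 24 all treated WT libraries lay below all untreated ones (58.3%, against 2.9% of all genes). The exceptions in direction were Pxylp1 and Apol9b. Oas2, Oasl2, Rtp4, Oas1g, Oas1a, Slfn5, Usp18, Irf9, Ifi204 and Ifi44 were among the 14. Oas2 was at 99.4, 86.5 and 62.0 CPM in cKO without antibody and 27.1, 8.18 and 6.96 CPM with IFNAR1 antibody. The mean with IFNAR1 antibody was 17.02% of that without in cKO, against 8.5% in WT.

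The untreated WT level of some ISGs, though not of all, was close to that of cKO cells with IFNAR1 antibody. Oas1a was at 10.6 to 17.97 CPM in WT without antibody and at 10.9 to 20.04 CPM in cKO with IFNAR1 antibody, and Mx1 was at 7.65 to 13.98 CPM and 13.4 to 16.7 CPM. The ranges overlapped in both genes, which were chosen after their values were seen, and this pair of groups was not tested. The summed Ifit genes did not overlap, at 9.42 to 26.2 CPM in WT without antibody and 58.4 to 87.0 CPM in cKO with IFNAR1 antibody. Nor did guanylate-binding proteins (10.4 to 18.1 and 28.5 to 33.4 CPM) or immunity-related GTPases (28.4 to 45.3 and 50.8 to 72.9 CPM). The sums of the other effector lists overlapped.

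Across the 98 effector genes the log2 fold changes in WT and cKO had a Pearson correlation of 0.57 and 78 genes were lower in both, whereas over all 17191 genes the correlation was 0.15. These are correlations across genes that share libraries and are given as a description. The median over the effector genes was -1.06 in cKO and -0.53 in WT. The difference between the genotypes was tested gene by gene as an interaction, and edgeR called 1 gene (0.00582%), Pxylp1, which is not on an interferon list. The call was lost in 4 of 6 fits that left out 1 WT library and with the replicate block. Among genes of the interferon lists Stat2 had the smallest interaction p (1.40 on the log2 scale, edgeR adjusted p = 0.993). Stat2 had a log2 fold change of -0.15 in WT and fell by 1.55 in cKO. Preb, Plpp5, Ppm1h and Serp1 were also among the genes with the smallest interaction p, each with an adjusted p of 0.993. For Oas2, Oasl2 and Rtp4 the interaction was -0.99, -0.56 and -0.78, with an edgeR adjusted p of 0.993 each, which does not show that the genotypes responded alike.

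**Figure D5:**
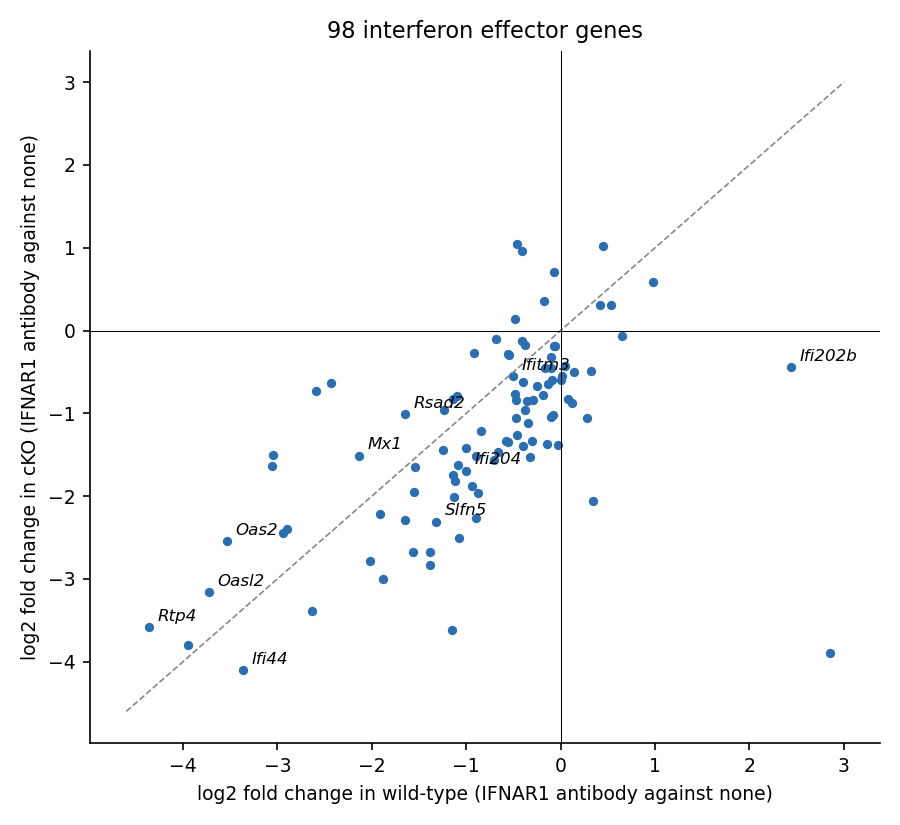
Each point is 1 of 98 interferon effector genes, with the log2 fold change of IFNAR1 antibody against no antibody in WT on the horizontal and in cKO on the vertical axis; the dashed line marks equal values. Of the points, 78 lie in the lower left, below 0 on both axes, with Oas2, Oasl2 and Rtp4 above the line and Slfn5 and Ifi44 below it.

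Interferon-γ, which signals through its own receptor, raises many of the same effectors. In other WT libraries of the study, BMDMs on day 8 with or without interferon-γ for 12 h, 1451 genes were called higher by a log2 fold change above 1, of which 1324 were among the genes tested here (7.70%). Of the 10 genes with the smallest p here, 8 were among them, and of the 20, 11. Among the 1324, 73 had all 3 IFNAR1 antibody libraries below all untreated ones (5.51%), against 302 of 11551 genes tested in both experiments and not raised by interferon-γ (2.61%). The median log2 fold change was -0.0053 over the 1324 genes and 0.02 over all genes.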

How the data were processed

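Cells were lysed for rRNA-depleted, paired-end RNA-seq. The authors trimmed reads with Cutadapt, aligned them to mm10 with STAR and deposited raw counts per gene for each library, of which the unstranded column was used. Unstranded counts cannot separate overlapping or antisense genes, and reads of near-identical copies may be lost. Reads that were unmapped, multimapping, without a feature or ambiguous (7.51 to 10.19%, 7.14 to 9.82%, 23.9 to 28.4% and 3.99 to 4.71% in the 6 libraries) were left out, and value columns not tied to a sample numbered 0. The authors' RSEM and SARTools results were not used.

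From these counts, 18 libraries of the antibody experiment (WT and cKO, 3 antibody groups each, 3 libraries per group) were fitted in 1 model of group means with edgeR 4.0.16 (R 4.3.3), TMM scaling and glmQLFit, after filterByExpr by group (minimum count 10, total count 15). Genes were called at a Benjamini-Hochberg adjusted p under 0.05 over all genes tested. CPM are TMM-scaled. DESeq2 1.42.0 was an alternative. The fit was tested on simulated data. Lists are described by counts and medians. Groups followed the labels, and 2 libraries of another experiment without a clear group were left out.

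The comparison and the gene lists were chosen with earlier results of these data known. Named genes were the 10 with the smallest p (since under 10 were called), up to 4 members per list with the smallest adjusted p, the receptor, STAT and IRF genes and interferons, the label checks and the 10 smallest interaction p. Other genes, such as those called by DESeq2, were chosen after their values were seen. Symbols were given for 54079 of 54146 genes by the mm10 annotation, and promoters came from RefSeq (GRCm38.p6). No label says that a replicate number marks 1 mouse. Same-numbered libraries deviated together in the cKO comparison and in WT control antibody against none (every r over 0.1), but not in the main comparison. Alternatives covered scaling, filters, libraries fitted, strand column, a replicate block and leaving out each library. A few members of the lists are not reported here.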

Additional observations from a re-analysis of the deposited data

Results flagged for a closer look

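Pxylp1, a phosphatase gene of glycosaminoglycan synthesis, was the 1 gene whose response to IFNAR1 antibody differed between WT and cKO by the test of the difference itself (interaction 2.145 on the log2 scale, edgeR quasi-likelihood adjusted p = 0.0402). In WT it was at 2.38, 2.02 and 2.53 CPM without antibody and 4.54, 4.01 and 3.47 CPM with IFNAR1 antibody, and in cKO at 3.25, 4.17 and 3.50 CPM and 1.21, 1.73 and 1.33 CPM. The groups separated in opposite directions. The control antibody in WT gave 3.99, 3.51 and 3.93 CPM, within the range of IFNAR1 antibody. The call did not hold when no antibody replicate 2 or 3 or IFNAR1 antibody replicate 1 or 2 was left out (smallest adjusted p of the fit 0.0689 to 0.19), nor with the replicate number as a block (0.244). The cause was not tested.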

How the results depend on the processing

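The count of genes called with IFNAR1 antibody against none, 0 in edgeR, was 31 in DESeq2 and 10 in DESeq2 on the 6 libraries alone, 12 without the filter on low counts, and 1 (Oas2) both with the 9 WT libraries alone and with the strand column of larger total. It stayed at 0 with RLE scaling, a mean of at least 1 CPM, the 6 libraries alone, and without the control antibody libraries. Leaving out 1 WT library gave 0 to 5 calls: 3 without no antibody replicate 3 (Oas2, Oasl2 and Rtp4) and 5 without no antibody replicate 1 (Hsd17b7, Sqle, H13, Plpp5 and Cenpc1). A replicate block gave 5 calls here (Oas2, Oas3, Rtp4, Oas1g and Oas1a), 46 in cKO (24 lower and 1 higher without it) and 0 for the interaction. Same-numbered libraries of the main comparison correlated at -0.27, 0.76 and 0.14, so the numbers were not taken to pair them there. Differently numbered libraries also deviated together or apart. IFNAR1 antibody replicate 3 correlated at 0.71 with no antibody replicate 1 and at -0.78 with no antibody replicate 2. Against no antibody, same-numbered libraries elsewhere correlated at 0.21, 0.11 and 0.45 (WT, control antibody) and 0.49, 0.37 and 0.48 (cKO, IFNAR1 antibody), every pair over 0.1, and the block gave 1870 calls in the former. DESeq2 called 2470 genes for control antibody against none (1530 in edgeR), 3086 for IFNAR1 against control antibody (1700), 77 in cKO and 3 for the interaction, for which leaving out 1 library gave 0 to 1. Of 717 log2 fold changes of 45 genes under the alternatives, 714 kept their direction. The exceptions were Stat2 without no antibody replicate 1 (0.039, range over left-out libraries -0.31 to 0.039) and Ifnar2 without no antibody replicate 1 (-0.019) or IFNAR1 antibody replicate 2 (-0.12, range -0.12 to 0.13). The effector median ranged from -0.86 to -0.28. DESeq2 on the 6 libraries, DESeq2 on the other comparisons, and leaving out the control libraries were chosen after seeing the data. The causes were not tested. Low counts limit Rtp4, Ifit3, Ifi44, Oas1g and Oas1h.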
